A study of Mus musculus with 9 samples.

Results

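The genes described here are the 6 receptors through which hormones, nerves and local mediators switch gastric acid secretion on or off: Hrh2, Cckbr, Chrm3, Ptger3, Sstr2 and Vipr1. They were chosen by name, as 6 of the 18423 genes in the table, and their values in all 9 libraries are given. The test needed 3 or more libraries with FPKM of 1 or above; 11209 genes met this, the 6 receptors among them. Vipr1 met it through the Ctrl libraries alone, so no weight is put on how many of the 6 passed. FPKM is a level scaled to gene length and to library depth.

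Parietal cells of the gastric corpus secrete acid through a proton pump that moves to the apical membrane when the cell is stimulated. Histamine from enterochromaffin-like cells acts on the H2 receptor (Hrh2) and raises cyclic AMP, while gastrin (through Cckbr) and acetylcholine (through the M3 receptor Chrm3) raise calcium, and gastrin also drives histamine release. Somatostatin (through Sstr2) and prostaglandin E (through Ptger3, the EP3 receptor) lower cyclic AMP and restrain secretion, and Vipr1 is a receptor of vasoactive intestinal peptide (VIP) and of pituitary adenylate cyclase-activating peptide that raises cyclic AMP.

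RNA with poly(A) tails was sequenced from mouse stomach glands of 3 genotypes, with 3 libraries each. Arid1a_Het glands carried Atp4bCre, Rosa26NICD and Arid1aflox/+, that is, Cre recombinase driven by Atp4b, a proton pump subunit gene of parietal cells, an allele at Rosa26 for the Notch intracellular domain, and 1 loxP-flanked copy of Arid1a, a subunit gene of the BAF chromatin remodelling complex. Ctrl glands carried Atp4bCre and Rosa26NICD only, so both transgenes are shared by Arid1a_Het and Ctrl, and WT glands were wild type. Per the labels' protocols the glands came off the corpus by EDTA and scraping, from places with tumours or from the matching region of normal stomachs. No age is given in the labels used here, nor whether a group's 3 libraries are 3 animals. The p-values therefore rest on library-to-library spread, part or all of which may be technical. The library Arid1a_Het 3 was registered apart from the others.

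Across the series, depth was 22653249 to 29478481 reads per library, and the 6 receptors were covered by 9 to 1863 reads each in a library. Arid1a averaged 7.26 ± 1.54 FPKM in Arid1a_Het, 14.8 ± 1.44 FPKM in Ctrl and 11.1 ± 2.94 FPKM in WT (SD, n = 3 each), with every Arid1a_Het library below every Ctrl library (limma adjusted p = 0.299) but not below every WT library. The 12 parietal markers summed to 552 to 4988 FPKM in Arid1a_Het, 369 to 1211 FPKM in Ctrl and 2976 to 14139 FPKM in WT, so the labelled tissue was present in each library. Exocrine pancreas markers summed to 1004 FPKM in Arid1a_Het 3 and 2585 FPKM in Ctrl 1, against at most 1.93 FPKM in the other libraries. Without these 2 libraries, 166 genes were lower in Ctrl against WT, in place of 341, and 21 in Arid1a_Het against Ctrl, in place of 1.

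The sequence before the start of 3 of the receptor genes is shown because these genes carry the findings below: Hrh2 the widest difference in FPKM, Vipr1 the opposite direction, and Sstr2 the only match to a cyclic AMP response element. Each is the 250 bases before the RefSeq start on GRCm38.p6, 5′ to 3′ on the plus strand, at chr13:54191879-54192128 for Hrh2, chr9:121642466-121642715 for Vipr1 and chr11:113619077-113619326 for Sstr2. Capitals mark TGACGTCA, the cyclic AMP response element, in Sstr2, and TGGGAA, the core of the site of RBPJ, the DNA-binding partner of the Notch intracellular domain, in Hrh2.
Hrh2: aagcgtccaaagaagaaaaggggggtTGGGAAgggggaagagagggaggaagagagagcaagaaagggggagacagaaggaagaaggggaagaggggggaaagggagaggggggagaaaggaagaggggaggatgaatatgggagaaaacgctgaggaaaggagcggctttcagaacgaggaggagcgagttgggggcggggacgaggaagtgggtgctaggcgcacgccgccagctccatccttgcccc
Vipr1: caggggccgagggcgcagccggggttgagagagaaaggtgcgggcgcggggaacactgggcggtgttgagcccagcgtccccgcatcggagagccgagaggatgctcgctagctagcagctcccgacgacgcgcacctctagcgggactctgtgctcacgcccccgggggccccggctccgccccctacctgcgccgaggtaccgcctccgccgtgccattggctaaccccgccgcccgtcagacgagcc
Sstr2: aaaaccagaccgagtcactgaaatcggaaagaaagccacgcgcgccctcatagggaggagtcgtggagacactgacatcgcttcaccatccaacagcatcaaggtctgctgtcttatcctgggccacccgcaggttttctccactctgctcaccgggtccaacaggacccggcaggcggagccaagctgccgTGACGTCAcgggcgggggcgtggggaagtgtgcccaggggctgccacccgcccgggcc
All 6 receptors had a window in the RefSeq table, and Hrh2 had 2. The windows of 300 bases, 250 before and 50 after the start, were searched on both strands. TGACGTCA stood in the Sstr2 window, 58 bases before the start, and in 1.79% of all 32851 windows. TGGGAA, which was added after the other motifs had been searched, stood 224 and 228 bases before the start in the 2 Hrh2 windows and in 25.6% of all windows. The longer RBPJ site CGTGGGAA, in 0.734% of all windows, and the estrogen-related receptor element TCAAGGTCA, in 0.423%, had no match in a window of the 6 genes. TGGGAA is part of CGTGGGAA. A match describes letters in these windows and nothing more.

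In Ctrl glands, which carry the Notch transgene, the histamine receptor Hrh2 and the gastrin receptor Cckbr fell and Vipr1 rose relative to wild type. Hrh2 was at 2.49 ± 1.58 FPKM in Ctrl and 18.4 ± 6.35 FPKM in WT, which is 7.38-fold higher in WT (SD, n = 3 each). Sstr2 and Chrm3 were lower in every Ctrl library than in any WT library without passing the test, and Ptger3 overlapped. Of all tested genes, 3.04% passed in the direction of Hrh2 and Cckbr and 7.01% in that of Vipr1, and 10.1% in either. Groups did not overlap for 10.2% of tested genes in the lower direction and for 33.5% in the higher direction.

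**Figure D1:**
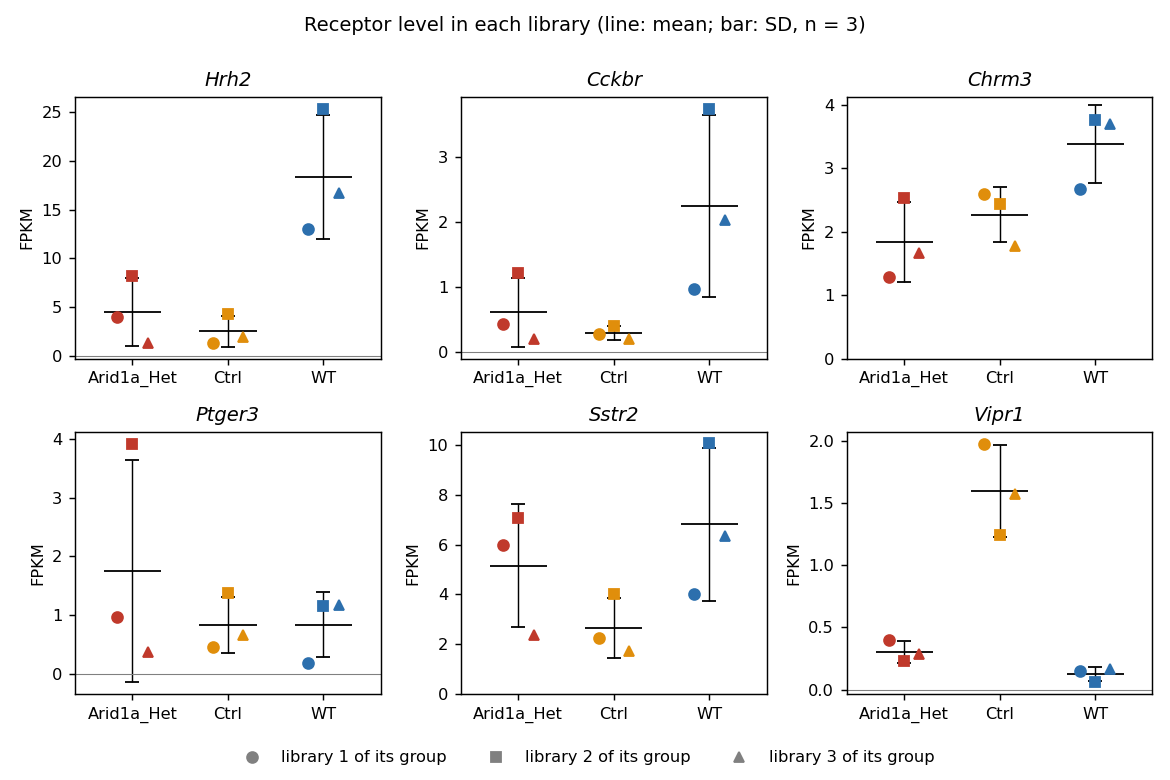
FPKM (vertical axis, linear) of each receptor in Arid1a_Het, Ctrl and WT, 1 point per library, with the group mean as a line and the SD as a bar (n = 3). Hrh2 was at 13.0 to 25.4 FPKM in WT and at most 8.17 FPKM elsewhere, and Vipr1 was at 1.24 to 1.97 FPKM in Ctrl and at most 0.401 FPKM elsewhere.

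Hrh2, the histamine H2 receptor and main stimulatory input to the proton pump, had 1.30, 4.28 and 1.90 FPKM in Ctrl 1, 2 and 3, against 13.0, 25.4 and 16.7 FPKM in WT 1, 2 and 3. The highest Ctrl library was below the lowest WT library, and the library numbered 2 was highest in both groups. The log2 fold change on the log2(FPKM + 1) scale was -2.51 with an SE of 0.49 (95% interval -3.63 to -1.40, limma adjusted p = 0.0177). Leaving out any of 4 single libraries ended the call: the limma adjusted p was 0.0611 without Ctrl 1, 0.0754 without Ctrl 3, 0.0643 without WT 2 and 0.0533 without WT 3, and it lay between 0.00184 and 0.0754 over all 20 alternatives. In bulk glands, fewer parietal cells and less Hrh2 RNA per parietal cell cannot be told apart. Of the 12 parietal markers, 6 fell in Ctrl against WT, with a median log2 fold change of -2.44 over the 12. Without the 2 libraries that hold pancreas genes, the log2 fold change of Hrh2 was -2.26 (limma adjusted p = 0.0184). GENCODE M21 places Hrh2 at chr13:54192129-54236180 on the plus strand of GRCm38, where the antisense gene Gm16578, not analysed here, overlaps an exon.

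Cckbr, the receptor of gastrin, had 0.270, 0.403 and 0.200 FPKM in Ctrl 1, 2 and 3, against 0.962, 3.75 and 2.03 FPKM in WT 1, 2 and 3. Ctrl libraries held 15 to 33 reads of it and WT libraries 62 to 274, so the low group rests on few reads. The groups did not overlap, and WT 1 came closest to Ctrl. Cckbr fell by 1.24 on the log2 scale with an SE of 0.33 (limma adjusted p = 0.0452), a call lost in 10 of 19 alternatives. Without the libraries Ctrl 1 and Arid1a_Het 3, which hold pancreas genes, it was -1.23 (limma adjusted p = 0.107), and with limma voom on the reads, which adds no constant to FPKM, it was -2.79 (adjusted p = 0.0550). Leaving out Ctrl 1, Ctrl 2, Ctrl 3, WT 2, WT 3 or Arid1a_Het 1 also ended the call, at limma adjusted p values of 0.117, 0.0914, 0.144, 0.130, 0.0934 and 0.0628 in that order. Cckbr lies at chr7:105425731-105470898 on the plus strand of GRCm38, with no other annotated gene over it.

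Chrm3, the muscarinic receptor that takes the vagal signal, had 2.59, 2.44 and 1.78 FPKM in Ctrl 1, 2 and 3, against 2.68, 3.77 and 3.70 FPKM in WT 1, 2 and 3. Ctrl 1 was only just below WT 1, so the groups were separate by a narrow gap. Its log2 fold change was -0.42 (95% interval -0.89 to 0.05, limma adjusted p = 0.190). That interval holds zero, and it also holds decreases as large as that of its lower bound. Chrm3 lies at chr13:9875486-10360847 on the minus strand of GRCm38, and the antisense gene Gm26861, not analysed here, overlaps an exon.

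The inhibitory receptors did not pass the test. Sstr2, which takes the somatostatin signal, had 2.24, 4.002 and 1.71 FPKM in Ctrl 1, 2 and 3, against 4.019, 10.1 and 6.33 FPKM in WT 1, 2 and 3. Ctrl 2 was barely below WT 1, and the library numbered 2 was again highest in each group. Between the groups the log2 fold change was -1.07 with an SE of 0.40 (limma adjusted p = 0.108). With the replicate number as a block it passed (limma adjusted p = 0.0291), and in that fit 5.97% of tested genes passed in this direction. Sstr2 lies at chr11:113619342-113626028 on the plus strand of GRCm38, within the span of Slc39a11, a zinc transporter gene on the other strand that overlaps its exons. Slc39a11 stood at 77.0 ± 9.71 FPKM in Ctrl and 98.6 ± 6.99 FPKM in WT (SD, n = 3 each), and Sstr2 was 2.55% to 10.4% of it over the 9 libraries. The library kit marks strand, but the use of strand in the counting is not given in the sources used here, so Sstr2 values may hold reads of Slc39a11.

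Ptger3, the receptor through which prostaglandin E restrains acid, had 0.457, 1.37 and 0.664 FPKM in Ctrl 1, 2 and 3, against 0.189, 1.15 and 1.17 FPKM in WT 1, 2 and 3. The groups overlapped, and the log2 fold change was 0.02 (95% interval -0.99 to 1.03, limma adjusted p = 0.981), an interval wide enough for a change of either sign. Its sign turned in 5 of 19 alternatives, both other scalings among them.

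Vipr1 moved the other way. It had 1.97, 1.24 and 1.57 FPKM (204 to 249 reads) in Ctrl 1, 2 and 3, against 0.147, 0.0614 and 0.162 FPKM (9 to 21 reads) in WT 1, 2 and 3. Each Ctrl library was several times above each WT library, and the ratio of group means was 12.9. For Vipr1 the log2 fold change was 1.20 with an SE of 0.17 (95% interval 0.83 to 1.57, limma adjusted p = 0.00466), which the added constant makes smaller than the ratio of means; limma voom on the reads gave 3.73 (adjusted p = 0.00747). The call stood in the 19 alternatives that held Vipr1, with limma adjusted p between 0.000514 and 0.0278. It was 0.00475 with no filter on low values and 0.0171 without the 2 libraries that hold pancreas genes. A minimum FPKM of 5 left Vipr1 untested. The filter was not applied again when libraries were left out. Fits without a Ctrl library thus kept Vipr1, although fewer than 3 libraries then reached FPKM 1, and they add little to the call. Vipr1 lies at chr9:121642716-121672954 on the plus strand of GRCm38. Its ligand gene Vip was at 0 to 0.0242 FPKM in Ctrl and 0 to 0.0746 FPKM in WT. Enteric neuron and glia markers summed to 0.376 to 0.599 FPKM in Ctrl and 0.797 to 0.944 FPKM in WT. Leukocyte markers summed to 10.2 to 13.6 FPKM in Ctrl and 2.19 to 8.41 FPKM in WT, mast cell markers to 356 to 640 FPKM in Ctrl and 25.5 to 58.4 FPKM in WT, and squamous forestomach markers to 226 to 654 FPKM in Ctrl and 43.6 to 95.1 FPKM in WT. In Ctrl against WT, 0 of 3 tested leukocyte markers passed, 2 of 5 mast cell markers were higher and 1 was lower, and 1 of 3 squamous markers was higher. The part of these cells in the Vipr1 values was not tested.

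**Figure D2:**
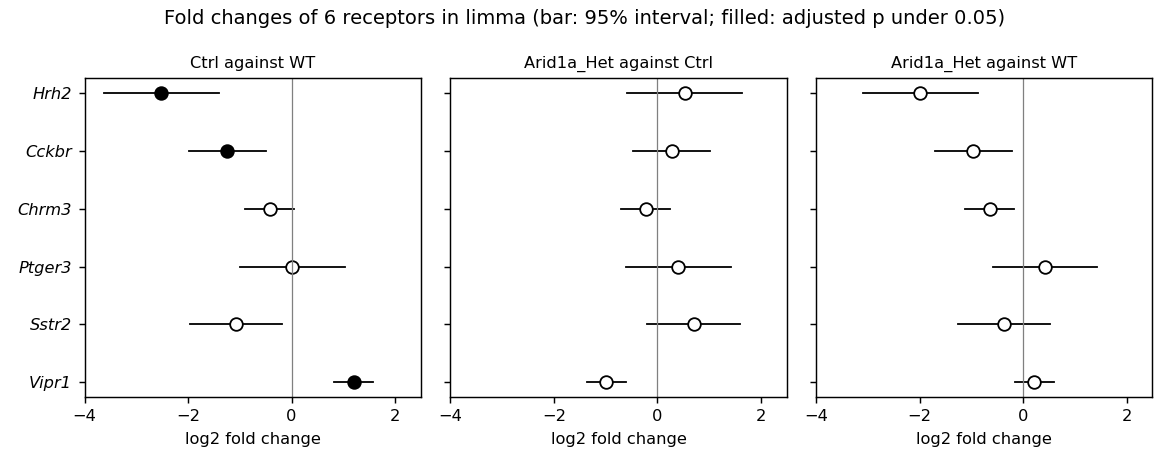
Log2 fold change on the log2(FPKM + 1) scale (horizontal axis) of the 6 receptors in the 3 comparisons, from limma with 9 libraries, where bars are 95% intervals and filled points have an adjusted p under 0.05. Hrh2, Cckbr and Vipr1 are filled in Ctrl against WT, at -2.51, -1.24 and 1.20, and no point is filled in the other comparisons.

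The median of all tested genes was not at zero on this scale. It was 0.24 for Ctrl against WT, -0.16 for Arid1a_Het against Ctrl and 0.02 for Arid1a_Het against WT, and median-ratio scaling shifted it by -0.23, 0.19 and -0.04 in the same order. Relative to that median, the log2 fold changes in Ctrl against WT were -2.75 for Hrh2, -1.48 for Cckbr, -0.66 for Chrm3, -0.22 for Ptger3, -1.31 for Sstr2 and 0.96 for Vipr1. Among these 6, only Ptger3 has another sign than on the deposited scale.

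With the Arid1aflox/+ allele added to the same transgenic background, no receptor passed the threshold. Of all tested genes, 0.00892% passed in Arid1a_Het against Ctrl, which is 1 gene of 11209, while 1305 genes (11.6%) had an unadjusted p under 0.05 in limma, and the count of genes called lower was 0 to 21 over the alternatives, with 0 by limma voom, 4 with no filter and 20 without Arid1a_Het 3. Vipr1 was the receptor that differed most. It had 0.401, 0.229 and 0.284 FPKM in Arid1a_Het 1, 2 and 3, against 1.97, 1.24 and 1.57 FPKM in Ctrl 1, 2 and 3, so every Arid1a_Het library was below every Ctrl library, as for 22.2% of tested genes. Its log2 fold change was -0.98 with an SE of 0.17 (95% interval -1.36 to -0.61, limma unadjusted p = 0.000192, adjusted p = 0.223). The adjusted p lay between 0.0550 and 0.627 over 19 alternatives, so the call was absent in each. Leukocyte markers summed to 6.27 to 19.3 FPKM in Arid1a_Het and 10.2 to 13.6 FPKM in Ctrl, and mast cell markers to 402 to 668 FPKM in Arid1a_Het and 356 to 640 FPKM in Ctrl. The part of leukocytes and mast cells in these Vipr1 values was not tested. The comparison shares its Ctrl libraries with Ctrl against WT, so the high Vipr1 level of Ctrl enters both.

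Hrh2 had 3.98, 8.17 and 1.30 FPKM in Arid1a_Het 1, 2 and 3, against 1.30, 4.28 and 1.90 FPKM in Ctrl 1, 2 and 3. Arid1a_Het 3 was as low as the lowest Ctrl library and Arid1a_Het 2 was above all of them. Its log2 fold change was 0.53 with a 95% interval of -0.59 to 1.64 (limma adjusted p = 0.652). Sstr2 had 5.99, 7.07 and 2.36 FPKM in Arid1a_Het 1, 2 and 3, against 2.24, 4.002 and 1.71 FPKM in Ctrl 1, 2 and 3, where Arid1a_Het 1 and 2 lay above the Ctrl range and Arid1a_Het 3 within it. Its log2 fold change was 0.70 with a 95% interval of -0.19 to 1.60 (limma adjusted p = 0.506). Slc39a11, the gene over it, stood at 115 ± 19.1 FPKM in Arid1a_Het and 77.0 ± 9.71 FPKM in Ctrl (SD, n = 3 each).

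Ptger3 had 0.970, 3.91 and 0.375 FPKM in Arid1a_Het 1, 2 and 3, against 0.457, 1.37 and 0.664 FPKM in Ctrl 1, 2 and 3. Arid1a_Het 2 alone set its mean apart, and without that library the log2 fold change was -0.12, against 0.40 with it (limma adjusted p = 0.696). Cckbr and Chrm3 overlapped between the groups. Cckbr had 0.427, 1.21 and 0.198 FPKM and Chrm3 had 1.29, 2.52 and 1.67 FPKM in Arid1a_Het 1, 2 and 3, with log2 fold changes over Ctrl of 0.27 and -0.22 (limma adjusted p = 0.718 and 0.652).

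In Arid1a_Het glands set against wild type, Hrh2 and Chrm3 lay below and Vipr1 above without overlap, and no receptor passed the threshold, where 2.75% of all tested genes did. Hrh2 was at 4.48 ± 3.47 FPKM in Arid1a_Het and 18.4 ± 6.35 FPKM in WT (SD, n = 3 each), and every Arid1a_Het library was below every WT library, as for 8.57% of tested genes. For Hrh2 the log2 fold change was -1.99 with an SE of 0.49 (95% interval -3.10 to -0.87, limma adjusted p = 0.0713). It passed without Arid1a_Het 2, at -2.47 (limma adjusted p = 0.0152), the library with the most parietal marker RNA of its group. Chrm3 also lay below WT in each Arid1a_Het library, at 1.83 ± 0.631 FPKM in Arid1a_Het and 3.38 ± 0.611 FPKM in WT (log2 fold change -0.64, 95% interval -1.11 to -0.17, limma adjusted p = 0.147). Vipr1 lay above WT in each, at 0.305 ± 0.0882 FPKM in Arid1a_Het and 0.124 ± 0.0544 FPKM in WT (log2 fold change 0.21, limma adjusted p = 0.588), as for 10.6% of tested genes. Cckbr, Ptger3 and Sstr2 overlapped, with log2 fold changes of -0.97, 0.42 and -0.37 (limma adjusted p = 0.166, 0.722 and 0.727). That of Sstr2 turned to 0.019 without the 2 libraries that hold pancreas genes. WT libraries are shared with Ctrl against WT.

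Hrh2 took a smaller share of the 6 receptors in the transgenic groups than in WT. Of the summed FPKM of the 6 receptors, Hrh2 made up 30.5%, 35.3% and 20.9% in Arid1a_Het 1, 2 and 3, 14.7%, 31.2% and 24.3% in Ctrl 1, 2 and 3, and 61.9%, 57.4% and 55.6% in WT 1, 2 and 3. No transgenic library reached the WT range. Vipr1 made up 0.989% to 4.60% in Arid1a_Het, 9.05% to 22.3% in Ctrl and 0.139% to 0.701% in WT, and Sstr2 30.6% to 45.9%, 21.9% to 29.1% and 19.2% to 22.8% in the same order of groups. The sum itself was 6.18 to 23.1 FPKM in Arid1a_Het, 7.82 to 13.7 FPKM in Ctrl and 21.0 to 44.2 FPKM in WT.

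**Figure D3:**
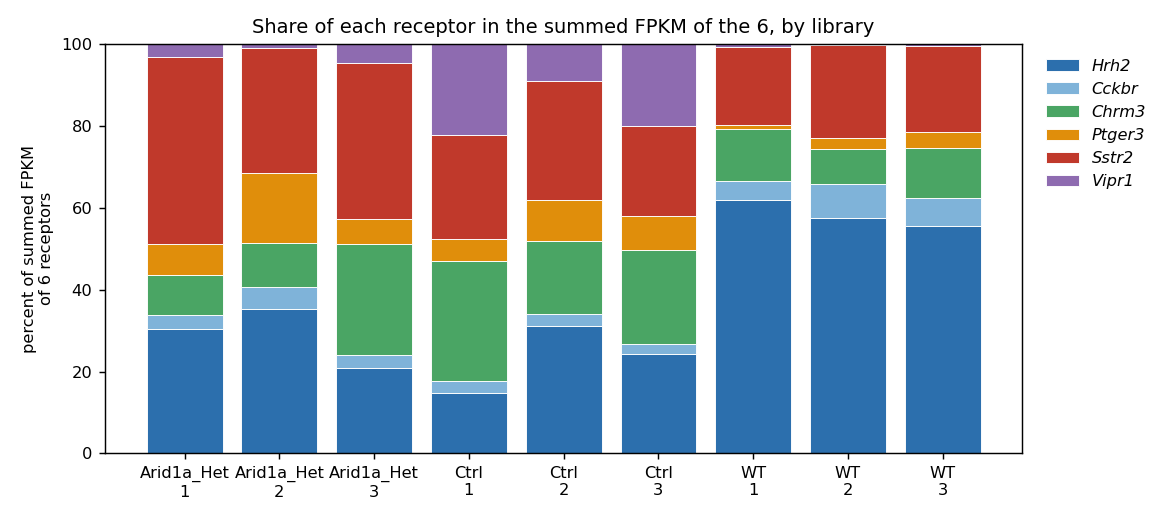
Share of each receptor (percent of the summed FPKM of the 6, vertical axis from 0 to 100) in each of the 9 libraries, 1 bar per library. Hrh2 fills 55.6% to 61.9% of each WT bar and at most 35.3% of any other bar, and Vipr1 fills 9.05% to 22.3% of the Ctrl bars.

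By mean FPKM, the order was Sstr2, Hrh2, Chrm3, Ptger3, Cckbr and Vipr1 in Arid1a_Het, where each receptor overlapped with the next. It was Sstr2, Hrh2, Chrm3, Vipr1, Ptger3 and Cckbr in Ctrl, where only Ptger3 and Cckbr were separate. In WT it was Hrh2, Sstr2, Chrm3, Cckbr, Ptger3 and Vipr1, where Chrm3 overlapped with Cckbr and Cckbr with Ptger3, and the other neighbours were separate. Orders between genes depend on the gene models: the FPKM values imply a length of 2791 bases for Hrh2 and 4510 bases for Chrm3, while all exons of these genes in GENCODE M21 cover 5935 and 6253 bases.

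Parietal RNA differed between the groups too, so each receptor was set against the 12 parietal markers, as its log2(FPKM + 1) minus their mean in the same library. On that measure Hrh2 stood at -2.73 ± 0.298 in Ctrl and -2.18 ± 0.317 in WT (SD, n = 3 each), a difference of -0.55. The other 5 receptors were higher in Ctrl relative to the parietal markers, by 0.72 for Cckbr, 1.54 for Chrm3, 1.98 for Ptger3, 0.89 for Sstr2 and 3.16 for Vipr1. The parietal mean itself was 3.85, 4.89 and 4.60 in Ctrl 1, 2 and 3, against 5.62, 7.07 and 6.53 in WT 1, 2 and 3. A gene that fell less, or not at all, is therefore higher on this measure. Ptger3 is such a gene, at 0.831 FPKM in Ctrl and 0.837 FPKM in WT. The share of all genes without overlap on this measure was not computed. All 6 differences had no overlap between groups and an exact permutation p of 0.1, two-sided, the smallest that 3 against 3 libraries can give, or 0.18 adjusted over 18 comparisons, so none can pass. For Cckbr the sign rests on the constant added: the difference was -0.28 with a constant of 0.1 and -0.60 with none. For Hrh2 the sign rests on the markers used, which did not move alike. In Ctrl against WT the log2 fold changes of Atp4a and Atp4b were -3.54 and -3.62, larger falls than the -2.51 of Hrh2. Kcnq1 and Aqp4, also in the mean, were at 0.08 and 0.20.

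On the same measure 3 receptors did not overlap between Arid1a_Het and WT, and the share of all genes that did so was not computed. The 12 parietal markers had a median log2 fold change of -1.83, and Sstr2 itself had -0.37. A gene that fell less than the markers is thus higher on this measure. The difference from WT was -0.76 for Hrh2, 1.65 for Ptger3 and 0.86 for Sstr2, without overlap (exact permutation p = 0.1 each, the smallest possible). That of Hrh2 again rests on the markers used. In Arid1a_Het against WT the log2 fold changes were -1.99 for Hrh2, -2.13 for Atp4a, -2.37 for Atp4b and 1.49 for Aqp4. Against Ctrl, only Vipr1 did not overlap, at -4.80 ± 0.896 in Arid1a_Het and -3.08 ± 0.738 in Ctrl, a difference of -1.72 (SD, n = 3 each, exact permutation p = 0.1). Hrh2 differed by -0.21 in Arid1a_Het against Ctrl, within the spread of the libraries (exact permutation p = 0.3).

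**Figure D4:**
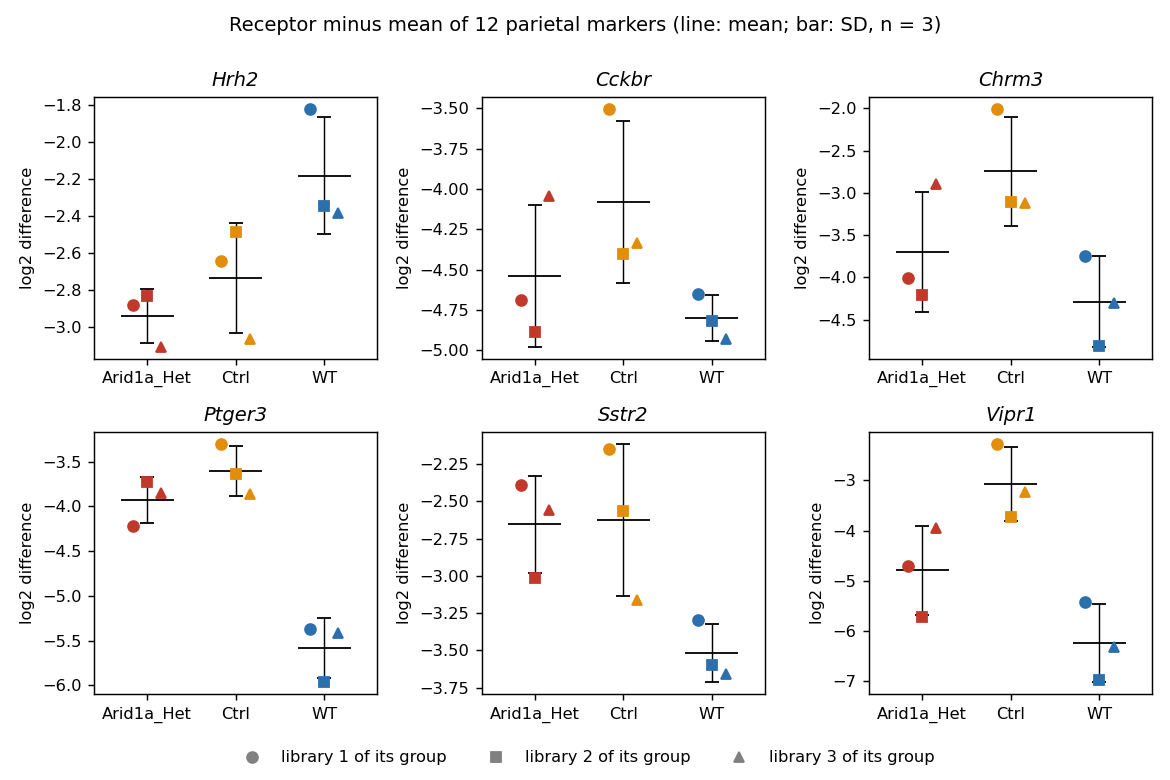
Log2(FPKM + 1) of each receptor minus the mean of 12 parietal markers in the same library (vertical axis, log2 difference, scales differ between panels), 1 point per library, with the group mean as a line and the SD as a bar (n = 3). Ptger3 is higher in each Arid1a_Het and Ctrl library than in any WT library, and Hrh2 is lower. Most parietal markers fell, so a gene without a change of its own tends to be higher here.

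Hrh2 minus each of the other receptors, within a library, was lower in Ctrl than in WT. Hrh2 had the largest fall of these receptors on the log2(FPKM + 1) scale, so that direction follows from its own fold change. It is no separate finding, and the share of all genes without overlap on this measure was not computed. On the log2(FPKM + 1) scale, Hrh2 minus Sstr2 was -0.11 ± 0.338 in Ctrl and 1.33 ± 0.125 in WT (SD, n = 3 each), a difference of -1.44. The same difference was -1.27 for Hrh2 minus Cckbr, -2.09 for Hrh2 minus Chrm3, -2.53 for Hrh2 minus Ptger3 and -3.71 for Hrh2 minus Vipr1, all without overlap (exact permutation p = 0.1, the smallest possible, and 0.15 adjusted over 15 comparisons). With no constant added the difference for Hrh2 minus Cckbr was -0.21, so how far Hrh2 and Cckbr differ depends on that constant.

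Genes with the most similar profile were found by the root mean square difference of log2(FPKM + 1), each gene centred, over the 9 libraries and 11004 tested genes. Nearest to Hrh2 were Clic6, an intracellular chloride channel gene of parietal cells, at 0.225, then Fa2h, a fatty acid hydroxylase gene, and Pdlim4. Clic6 had 94.5, 212 and 56.6 FPKM in Arid1a_Het 1, 2 and 3, 47.6, 90.3 and 61.0 FPKM in Ctrl 1, 2 and 3, and 210, 641 and 347 FPKM in WT 1, 2 and 3. Like Hrh2, it was highest in the library numbered 2 of each group. Clic6 was picked for its similar profile, so this is no separate finding.

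Cckbr was nearest to Esrrb, an orphan nuclear receptor gene, at 0.0943, then Me3 and Peli2. Chrm3 lay nearest to Tmem25, Zfp827 and Mxd4, Ptger3 to Igf1, B2m and Myo16, and Sstr2 to genes that include Ebpl and Enpp4. Vipr1 lay nearest to Rpl12, Nfkbid and Rpl36, which were highest in Ctrl, a pattern that follows from how they were picked. Of these, Nfkbid, a nuclear inhibitor gene of NF-kB, stood at 0.750 ± 0.339 FPKM in Arid1a_Het, 2.42 ± 0.251 FPKM in Ctrl and 0.710 ± 0.270 FPKM in WT (SD, n = 3 each). Rpl12 and Rpl36 have near-identical copies elsewhere in the genome, so their values are uncertain.

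The genes around the receptors were read from 5 lists, of which 94 genes were in the table and 69 were tested. In Ctrl against WT, 4 were higher and 11 lower, beside 7.01% and 3.04% of all tested genes. Their median log2 fold change was -0.19, against 0.24 over all tested genes. Of these 15 calls, those of Sst and Slc26a9 held in all 20 alternatives, and each of the other 13 was lost in 2 to 11 of its 19 or 20. With no filter on low values 2 list genes were higher and 4 lower, and the calls of Ptgs2, Ptger4, Sctr, Rgs19, Atp4b, Kcnj15, Kcnj16, Clic6, Slc26a7 and Slc4a2 were lost (limma adjusted p 0.0506 to 0.0898). Without the 2 libraries that hold pancreas genes, the calls of Ptger4, Rgs19, Atp4b, Slc26a7 and Slc4a2 were lost (limma adjusted p 0.0514 to 0.0978). Leaving out certain single libraries left fewer list genes called: 2 higher and 4 lower without Ctrl 1, and 0 and 5 without Ctrl 2. There were 0 and 2 without Ctrl 3, 0 and 3 without WT 2, and 1 and 2 without WT 3. Over each library left out in turn, 0 to 4 were higher and 2 to 13 lower.

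Among the ligands and the enzymes that make or remove them, 1 of 11 tested genes was higher and 2 were lower, with a median of -0.72. Sst, the somatostatin gene and ligand of Sstr2, had 19.7, 13.1 and 7.04 FPKM in Ctrl 1, 2 and 3, against 175, 140 and 143 FPKM in WT 1, 2 and 3, and fell (log2 fold change -3.53, SE 0.49, limma adjusted p = 0.00465). No Ctrl library came near a WT library. Enteroendocrine markers, of which Sst is 1 of 12, summed to 85.1 to 144 FPKM in Ctrl and 524 to 677 FPKM in WT, and 4 of 10 tested fell. Ptgs2, the inducible cyclooxygenase gene of prostaglandin synthesis, had 2.02, 3.604 and 5.61 FPKM in Ctrl 1, 2 and 3, against 0.0658, 0.207 and 0.0282 FPKM in WT 1, 2 and 3, and rose (limma adjusted p = 0.0227). Hpgd, whose enzyme breaks prostaglandins down, fell to 62.5 ± 16.7 FPKM in Ctrl, against 128 ± 5.86 FPKM in WT (limma adjusted p = 0.0220; SD, n = 3 each).

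Histamine genes gave no call. Hnmt, whose enzyme inactivates histamine, stood at 4.04 ± 1.59 FPKM in Ctrl and 1.75 ± 0.499 FPKM in WT (limma adjusted p = 0.0719), and Hdc, whose enzyme makes it, at 2.54 ± 1.41 FPKM in Ctrl and 1.58 ± 0.534 FPKM in WT (SD, n = 3 each). Gast, the gastrin gene of antral G cells, had 48.9, 0.154 and 3139 FPKM in Arid1a_Het 1, 2 and 3, 1386, 373 and 13.4 FPKM in Ctrl 1, 2 and 3, and 3381, 573 and 2284 FPKM in WT 1, 2 and 3. It ranged widely within each group, and the groups overlapped. WT 1, the library with the most Gast, had the least Cckbr of its group, and also the least Hrh2 and parietal marker RNA. In Ctrl the library with the most Gast, Ctrl 1, did not have the least Cckbr (0.270 FPKM, against 0.200 FPKM in Ctrl 3). How much antral tissue each library held was not tested.

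Of the other receptors of these families, 6 of 17 were tested, with 1 higher and 1 lower. Ptger4, the EP4 prostaglandin receptor that raises cyclic AMP, stood at 8.51 ± 1.11 FPKM in Ctrl and 2.37 ± 1.19 FPKM in WT and rose (log2 fold change 1.55, SE 0.34, limma adjusted p = 0.0251), a call lost in 7 of 20 alternatives. Sctr, the secretin receptor gene, fell to 8.16 ± 1.13 FPKM in Ctrl, against 25.3 ± 4.87 FPKM in WT (limma adjusted p = 0.0398). Cckar, the cholecystokinin receptor gene related to Cckbr, stood at 28.6 ± 24.6 FPKM in Ctrl and 7.31 ± 4.58 FPKM in WT (SD, n = 3 each), and the groups overlapped.

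Among the signalling genes inside the cell, few passed. Of 25 tested G protein and second messenger genes, 24 did not pass, and Itpr2, a calcium release channel gene, fell to 1.42 ± 0.511 FPKM in Ctrl, against 6.31 ± 2.24 FPKM in WT (log2 fold change -1.57, limma adjusted p = 0.0145; SD, n = 3 each). Gnas, which encodes the stimulatory G protein of Hrh2, stood at 52.8 ± 8.01 FPKM in Ctrl and 63.5 ± 4.66 FPKM in WT. Of 7 tested receptor regulators, Arrb2, a beta-arrestin gene, and Rgs19, a gene of a protein that switches off inhibitory G proteins, rose, to 9.70 ± 1.81 and 3.98 ± 0.365 FPKM in Ctrl, against 4.51 ± 0.962 and 1.67 ± 0.487 FPKM in WT (limma adjusted p = 0.0240 and 0.0450).

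The acid effectors that passed were all lower in Ctrl. Of 20 tested, 7 were lower and 0 were higher, with a median log2 fold change of -0.47, and 11 of the 12 parietal markers are in this list. Slc26a9, an anion transporter gene, stood at 8.24 ± 1.44 FPKM in Ctrl and 51.3 ± 25.1 FPKM in WT (limma adjusted p = 0.0101), and Kcnj15, a potassium channel gene, at 10.3 ± 5.55 FPKM in Ctrl and 89.0 ± 35.3 FPKM in WT (limma adjusted p = 0.0204; SD, n = 3 each). Clic6, Kcnj16, Atp4b, Slc26a7 and Slc4a2 were the other calls.

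**Figure D5:**
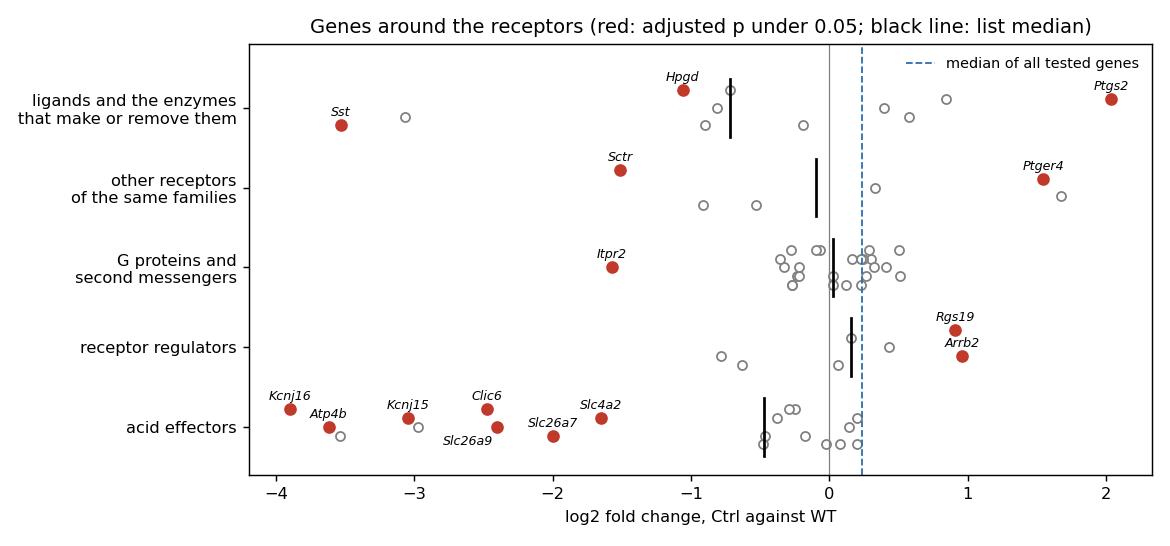
Log2 fold change on the log2(FPKM + 1) scale, Ctrl against WT (horizontal axis), of the tested genes in 5 lists, 1 point per gene, where red points have a limma adjusted p under 0.05, black lines are list medians and the dashed line is the median of all tested genes. The acid effector calls lie left of zero, and the calls right of zero are Ptgs2, Ptger4, Rgs19 and Arrb2.

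In Arid1a_Het against Ctrl, 0 of the 69 tested genes of these lists passed in limma, and limma voom also called 0. The list medians ran from -0.26 for receptor regulators to 0.39 for acid effectors, against -0.16 over all tested genes. In Arid1a_Het against WT, Sst, Itpr2 and Slc26a9 fell, beside 0.687% of all tested genes in that direction. The call of Sst held in all 20 alternatives, that of Itpr2 was lost in 7 of 19 and that of Slc26a9 in 12 of 20. Both were lost with no filter (limma adjusted p = 0.0680 and 0.0924), without the 2 libraries that hold pancreas genes (limma adjusted p = 0.113 and 0.176), and without Arid1a_Het 1, Arid1a_Het 3, WT 2 or WT 3. Sst had 7.75, 12.4 and 34.5 FPKM in Arid1a_Het 1, 2 and 3, all far below the WT libraries (log2 fold change -3.25, limma adjusted p = 0.0113).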

How the data were processed

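FPKM, the unit in which the authors deposited their table of 18423 genes and 9 libraries, scales fragments to gene length and depth. Per the labels' protocols, poly(A) libraries were made with a stranded mRNA kit. STAR 2.4.2a and the builds GRCm38 and mm10 are named in the submitters' processing notes; the tool that counted reads, its gene models and its use of strand are not given in the sources used here. Deposited FPKM values of a gene were whole multiples of 1 read's worth within 0.01 for 100.0% of genes, which gave reads per library (22653249 to 29478481) and an alternative with limma voom.

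Comparisons used limma 3.58.1 under R 4.3.3, with lmFit and a trended eBayes, on log2(FPKM + 1), with all 9 libraries and 3 group means. The 11209 genes with 3 or more libraries at FPKM 1 or above entered, with Benjamini-Hochberg adjusted p under 0.05 as a call. Differences of a receptor from the parietal markers or from Hrh2 were tested by exact two-sided permutation over libraries. The fit was tested on simulated data.

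Named genes are the 6 receptors, the 3 genes nearest to each in profile, and from each list up to 4 of lowest p in Ctrl against WT and up to 2 in Arid1a_Het against Ctrl, of which a part is printed; some genes that the rule names are not reported here. Clic6, Kcnj16, Atp4b, Slc26a7 and Slc4a2 as other calls, and Gast, Hdc, Vip and Gnas for their role, were also named. The 6 receptors and the lists were chosen with earlier results of these data known.

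Deviations from the group mean correlated between Ctrl and WT libraries with equal numbers (0.207, 0.336 and 0.138, each above 0.1); the labels give no reason, so this pairing of Ctrl with WT comes from the data. Those of Arid1a_Het did not (-0.151, 0.467 and -0.02 with Ctrl; 0.252, 0.563 and -0.279 with WT). Alternatives were a constant of 0.1, no filter on low values, a filter at FPKM 5, scaling by median ratios, quantile normalization, only the groups compared, robust eBayes, array weights, the replicate block, voom, and leaving out each library or both with pancreas genes. Fits with libraries left out kept the genes tested with all 9 libraries, without a new filter. A difference with no constant was added after the data were seen. Positions are from GENCODE M21, promoters from RefSeq. Python 3.11.15 with numpy 2.4.6, pandas 2.3.3, scipy 1.17.1 and matplotlib 3.10.9 was used.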

Additional observations from a re-analysis of the deposited data

How the results depend on the processing

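Over the 3 comparisons, Hrh2 kept its sign in all 20 alternatives and Vipr1 in Ctrl against WT and in Arid1a_Het against Ctrl in all 19. No filter gave 1 receptor called lower in Ctrl against WT, with Cckbr at -1.24 (adjusted p = 0.0782). Median-ratio scaling likewise gave 1 (Cckbr -1.36, adjusted p = 0.0617), as did limma voom (Cckbr -2.79, adjusted p = 0.0550) and leaving out both libraries with pancreas genes (Cckbr -1.23, adjusted p = 0.107). A minimum FPKM of 5 left Cckbr, Chrm3, Ptger3 and Vipr1 untested, so 0 receptors were called higher and 1 lower. Sstr2 passed with array weights (-0.90, adjusted p = 0.0369) and with the replicate block (-1.07, adjusted p = 0.0291). Ptger3 turned to -0.12 with median-ratio scaling, -0.38 with quantile normalization and -0.11 with array weights. Quantile normalization also turned Chrm3 to 0.058 in Arid1a_Het against Ctrl and Vipr1 to -0.019 in Arid1a_Het against WT. Without both pancreas libraries Sstr2 turned to 0.019 in Arid1a_Het against WT. The causes were not tested.

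Relative to parietal markers, Cckbr turned to -0.28 (constant 0.1) and -0.60 (none) in Ctrl against WT and to -0.47 and -0.69 in Arid1a_Het against WT. Sstr2 turned to 0.061 (constant 0.1), 0.063 (none) and 0.13 with quantile normalization in Arid1a_Het against Ctrl. Hrh2 minus Cckbr turned to -0.078 with none in Arid1a_Het against Ctrl.

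Of all tested genes, Ctrl against WT called 786 higher and 341 lower. A minimum FPKM of 5 gave 497 higher, median-ratio scaling 609 lower, quantile normalization 703 lower, array weights 2307 and 951, and no pancreas libraries 166 lower. Arid1a_Het against Ctrl called 0 and 1, against 0 lower with a constant of 0.1 or voom, 2 with a minimum of 5 or quantile normalization, 4 with no filter or array weights, 1 and 4 in a fit of just those 2 groups, and 21 lower without the pancreas libraries. Arid1a_Het against WT called 231 and 77, against 95 and 45 with no filter, 44 lower with a minimum of 5, 89 and 16 in a fit of just those 2 groups, 494 and 243 under array weights, and 98 and 17 without the pancreas libraries. Of the genes in the 5 lists, Ctrl against WT called 4 and 11, against 2 and 4 with no filter, 2 higher with a minimum of 5 or without the pancreas libraries, and 10 and 18 with array weights. Arid1a_Het against WT called 3 lower, against 1 with no filter, only the 2 groups or no pancreas libraries.

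With the replicate block, calls were 1804 higher and 669 lower in Ctrl against WT. Arid1a_Het shares only numbers with the others: there the block gave 2 lower against Ctrl, and against WT 445 and 246, with 2 list genes higher, 7 lower and 1 receptor, Hrh2 (-1.99, adjusted p = 0.0124). Beside these and Sstr2 in Ctrl against WT, the block changed no receptor call. Not every Arid1a_Het library correlated best with its own number.

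Leaving out each library, Ctrl against WT called 217 to 1060 higher and 43 to 405 lower, 0 to 2 receptors lower, and 0 to 4 and 2 to 13 list genes. Hrh2 ranged from -2.86 to -2.26, Cckbr from -1.56 to -0.92, Ptger3 from -0.27 to 0.17. Arid1a_Het against Ctrl called 0 to 2 and 1 to 20, with Ptger3 from -0.12 to 0.80, Sstr2 minus parietal markers from -0.30 to 0.21 and Hrh2 minus Ptger3 from -0.051 to 0.26. Arid1a_Het against WT called 80 to 528 and 11 to 192, 0 to 1 receptors lower, 0 to 1 and 1 to 6 list genes, with Hrh2 from -2.47 to -1.47, Ptger3 from -0.11 to 0.81 and Sstr2 from -0.65 to 0.019. With Cckbr at 15 to 33 reads in Ctrl and Vipr1 at 9 to 21 in WT, depth limits their low levels.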

Other observations

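Values of 2 receptors of the same families that were too low for testing are given here, picked after they were seen. Hrh1, the histamine H1 receptor gene, whose receptor raises calcium rather than cyclic AMP, had 0.518, 0.262 and 0.997 FPKM in Arid1a_Het 1, 2 and 3, 1.21, 0.937 and 1.90 FPKM in Ctrl 1, 2 and 3, and 0.00968, 0.0683 and 0.0193 FPKM in WT 1, 2 and 3. WT libraries held 1, 8 and 2 reads of it, and Ctrl libraries 122 to 229. Each Ctrl library was above every WT library, as for 33.5% of tested genes, and so was each Arid1a_Het library, as for 10.6%. The share for both at once was not computed, and Hrh1 was not among the tested genes. In the limma fit with no filter the log2 fold change was 1.17 with an SE of 0.19 in Ctrl against WT (adjusted p = 0.0246), -0.57 in Arid1a_Het against Ctrl (adjusted p = 0.430) and 0.60 in Arid1a_Het against WT (adjusted p = 0.216). In Ctrl against WT that fit called 563 genes higher, Hrh1 among them, out of those of the 18423 genes that had any reads. Hrh1 thus stood higher in Ctrl than in WT, while Hrh2 stood lower.

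Vipr2, the second VIP receptor gene, had 0.555, 2.16 and 0.686 FPKM in Arid1a_Het 1, 2 and 3, 0.959, 1.43 and 0.514 FPKM in Ctrl 1, 2 and 3, and 0.396, 0.162 and 0.289 FPKM in WT 1, 2 and 3. Vipr2 was above WT in each Ctrl library, as were 33.5% of tested genes, and in each Arid1a_Het library, as were 10.6%. The share for both at once was not computed. Vipr2 overlapped between Arid1a_Het and Ctrl. With no filter it passed in no comparison (limma adjusted p = 0.963 in Arid1a_Het against Ctrl, 0.351 in Arid1a_Het against WT and 0.226 in Ctrl against WT).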
